A study of Homo sapiens with 12 samples.

Results

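The genes described here are the cell surface receptors of the tumour necrosis factor (TNF) superfamily that carry or modulate death signals, together with *CFLAR*. They are *FAS*, *TNFRSF10A*, *TNFRSF10B*, *TNFRSF10D*, *LTBR*, *TNFRSF12A*, *TNFRSF21*, *TNFRSF9*, *CD40* and *CFLAR*, which makes 10 of the 33093 genes with usable counts. They were listed by gene name, with earlier results of these data known. All 10 were present in the count table and 8 had enough reads to be tested. RNA was sequenced from HEK293T cells, a transformed human embryonic kidney line, in 4 groups of 3 samples. WT cells and *NFKB1* S80A cells were either untreated or given 10 ng/ml TNFα for 3 h. The S80A cells carry a CRISPR/Cas9 knock-in that replaces a serine of the NF-κB subunit p50 with alanine. The edited cells were grown from single cells, and the number of clones sequenced is not given in the sources used here, so genotype and clone cannot be told apart.

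Receptors of this family are trimeric membrane proteins that are engaged by ligands of the TNF family. Death receptors such as FAS and TRAIL-R2 (encoded by *TNFRSF10B*) hold a cytoplasmic death domain that recruits FADD and caspase-8, whereas receptors such as CD40 and 4-1BB (*TNFRSF9*) bind TRAF adaptors and activate NF-κB. The product of *CFLAR*, c-FLIP, resembles caspase-8 but lacks its protease activity, and limits caspase-8 activation at the receptors. Several genes of the family are known targets of NF-κB.

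The libraries held between 15624878 and 20889577 counts, and the tested genes numbered 14383. *NFKBIA*, which encodes the inhibitor IκBα, rose with TNFα by 3.52 on the log2 scale in WT cells (SE 0.10, adjusted p = 1.58e-11) and by 3.66 in S80A cells (SE 0.10, adjusted p = 6.55e-12). Here and below, p-values come from the quasi-likelihood fit of edgeR, adjusted by Benjamini-Hochberg over all tested genes, and a gene is said to rise or fall where this value is under 0.05. The RNA level of *NFKB1* itself says nothing of a point edit. Marker genes of the HEK293 line were counted as present where their group mean exceeded 1 CPM (counts scaled to the library total). All 7 were present in WT cells, 6 in untreated S80A cells and 5 in TNFα-treated S80A cells. Over the 12 samples *NEFM* ranged from 0.146 to 121 CPM, *PAX2* from 0.573 to 2.5 and *LHX1* from 0.518 to 1.95. The other HEK293 markers stayed above 1 CPM in every sample. The leukocyte markers *PTPRC*, *MS4A1* and *CD3E* were at 0 counts in every sample.

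Promoter sequences were compared first, because NF-κB acts through short κB sites in DNA. RefSeq windows of GRCh38.p14, from 250 bases before to 50 bases after a transcript start, were read for *FAS*, *LTBR*, *TNFRSF21*, *TNFRSF9* and *CFLAR*, with 10 windows in all. The promoters of *TNFRSF10A*, *TNFRSF10B*, *TNFRSF10D*, *TNFRSF12A* and *CD40* were not analysed here. A narrow κB motif, GGG followed by any pair of bases and then TTTCC, was searched on both strands, and so was the wider κB consensus, with which it overlaps. Among these 5 genes the narrow motif was found only in *TNFRSF9*, the gene with the largest TNFα response of the group. The *TNFRSF9* window is shown for this match and a *CFLAR* window for a site of the wider consensus, both written 5′ to 3′ on the strand of the gene, with matches to a κB motif in capitals.
TNFRSF9, chr1:7940790-7941089, minus strand: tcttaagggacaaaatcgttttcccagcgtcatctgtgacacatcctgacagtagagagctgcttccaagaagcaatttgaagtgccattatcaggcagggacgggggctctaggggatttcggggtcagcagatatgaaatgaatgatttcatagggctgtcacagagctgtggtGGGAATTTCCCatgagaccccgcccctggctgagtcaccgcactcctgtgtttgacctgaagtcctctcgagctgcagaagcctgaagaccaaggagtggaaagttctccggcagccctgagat
CFLAR, chr2:201118466-201118765, plus strand: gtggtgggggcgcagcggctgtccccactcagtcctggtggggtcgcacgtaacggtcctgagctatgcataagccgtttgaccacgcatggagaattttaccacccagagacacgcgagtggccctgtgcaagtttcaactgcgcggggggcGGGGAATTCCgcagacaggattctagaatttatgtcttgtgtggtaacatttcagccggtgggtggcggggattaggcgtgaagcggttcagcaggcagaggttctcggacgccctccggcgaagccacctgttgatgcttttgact
In *TNFRSF9* the match GGGAATTTCC lay on the strand of the gene, 74 to 65 bases before the start, at chr1:7940904-7940913. The wider κB consensus also matched there on the opposite strand, as GGGAAATTCC shifted by a single base, and the capitals cover both matches. In *CFLAR* the capitals mark GGGGAATTCC, a match to the κB consensus but not to the narrow motif. It lay 97 to 88 bases before the start of 1 of 4 windows. These RefSeq starts of *TNFRSF9* and *CFLAR* lie within the gene spans given below, not at their edge. *FAS* also had a match to the consensus, GGGGGACCCC, in 1 of 3 windows. The windows of *LTBR* and *TNFRSF21* held neither motif. Of all 35116 promoter windows 1.91% held the narrow motif and 5.91% held the κB consensus. For comparison, the *NFKBIA* window held GGGAATTTCC on the opposite strand. The window of *BIRC3*, described below, held GGGGATTTCC on the opposite strand. *BIRC3* did not pass for TNFα in WT cells. The windows of *TNFRSF19* and *EDA2R*, also described below, held neither motif. A match describes letters in a window and is not evidence of binding.

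*TNFRSF9* encodes 4-1BB (CD137), a costimulatory receptor best known from activated T cells, and spans chr1:7915871-7943165 on the minus strand. It was the only gene of the group that passed the test for TNFα, and it rose in both genotypes. In untreated WT cells its normalised counts (counts scaled to a common library size) were 4.14, 2.68 and 0 in replicates 1 to 3. After TNFα they were 74.7, 42.5 and 45. The highest untreated sample lay far under the lowest treated one. The log2 fold change in WT cells was 4.48 (SE 0.58, adjusted p = 0.000763 by edgeR).

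In S80A cells the untreated normalised counts of *TNFRSF9* were 2.78, 1.2 and 1.74. After TNFα they were 138, 61.3 and 64.4. Again the groups did not overlap, and the log2 fold change was 5.42 (SE 0.56, adjusted p = 5.9e-05 by edgeR). Untreated cells gave so few reads that the size of the fold is poorly fixed. From the summed reads, 161 against 7 in WT cells, the ratio was 23.4 with a 95% counting interval of 11.1 to 59.2, and from 265 against 6 in S80A cells it was 46.9 (21.3 to 129). These intervals cover counting error only.

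After TNFα the mean of *TNFRSF9* was 54.1 ± 17.9 normalised counts (SD, n = 3) for WT and 88 ± 43.6 (SD, n = 3) for S80A. The samples of the 2 genotypes overlapped, and the log2 difference of 0.73 (SE 0.33) did not pass (adjusted p = 0.206, edgeR). Without S80A replicate 1 the log2 difference was 0.22, but that fit kept WT replicate 1, which was also the highest of its group. With a block for the replicate number, an alternative fit, the log2 difference was 0.67 (adjusted p = 0.0408, edgeR). The difference between the 2 responses, tested as the interaction of genotype and TNFα, was 0.94 on the log2 scale with a 95% interval of -1.63 to 3.51 (adjusted p = 0.925, edgeR). Over the 12 samples the log2 level of *TNFRSF9* was most like those of *NFKB1* and *OPTN* (Pearson's r = 0.99 for both) and *TAPBP* (0.98), where the split into untreated and treated samples is shared by all of them.

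**Figure D1:**
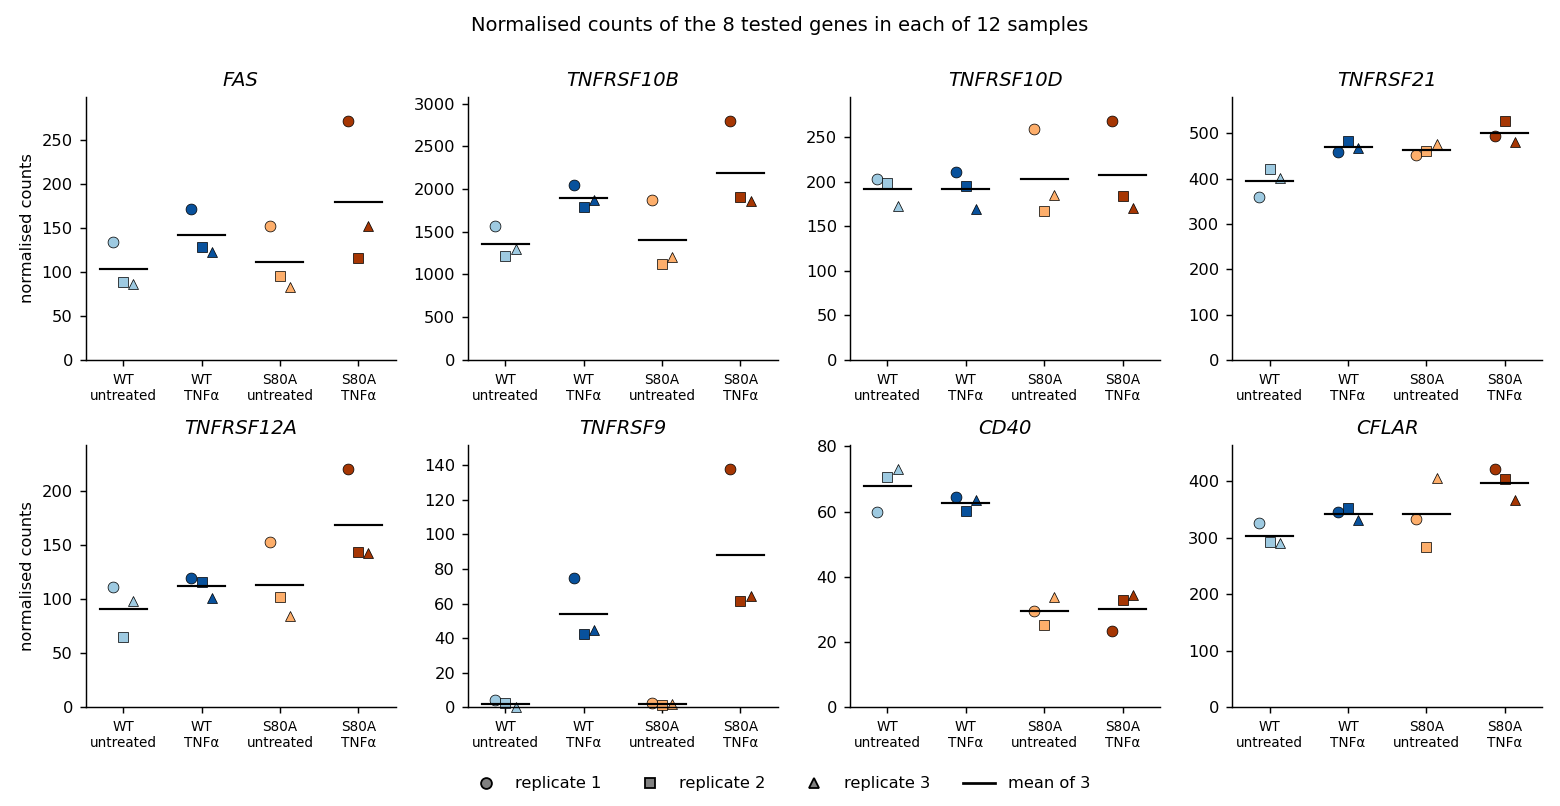
Normalised counts (y axis, linear, from 0, own scale per gene) of the 8 tested genes in the 4 groups (x axis), with a marker for each replicate number and a line at the mean of 3. *TNFRSF9* rises from at most 4.14 to at least 42.5 with TNFα, and *CD40* lies lower in all 6 S80A samples than in all 6 WT samples.

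*CD40* encodes a receptor of B cells and antigen-presenting cells that activates NF-κB through TRAF adaptors, and lies at chr20:46118271-46129863 on the plus strand. It was the only gene of the group that differed between the genotypes, and it was lower in S80A cells with or without TNFα. In untreated cells its normalised counts were 60, 70.7 and 73.2 in WT and 29.7, 25.2 and 33.9 in S80A. The difference was -1.18 on the log2 scale (SE 0.18, adjusted p = 0.00167 by edgeR), a level 2.27-fold lower. After TNFα the counts were 64.4, 60.2 and 63.6 in WT and 23.5, 33 and 34.3 in S80A. The difference was then -1.06 (SE 0.19, adjusted p = 0.00406 by edgeR), a level 2.09-fold lower. In bulk RNA, fewer cells with the transcript and less transcript per cell cannot be told apart.

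TNFα itself left no detectable change in *CD40*. The log2 fold change was -0.12 in WT cells with a 95% interval of -0.48 to 0.24, and 0.01 in S80A cells with an interval of -0.44 to 0.45. The level of *CD40* was most like that of *RASGEF1A* and *COL1A1* over the 12 samples (Pearson's r = 0.98 for both), which are split by genotype in the same way, so that this likeness restates the genotype difference. *COL1A1*, a collagen gene, is also a fibroblast marker. The 5 fibroblast markers summed to between 13.8 and 16.3 CPM in WT samples and between 6.45 and 7.89 CPM in S80A samples. Of the 5, only *COL1A1* exceeded 1 CPM, while *COL1A2*, *DCN*, *LUM* and *PDGFRB* did not in any sample. The 7 HEK293 markers summed to between 288 and 311 CPM in WT samples and between 232 and 268 CPM in S80A samples. The part of these shifts in the *CD40* difference was not tested.

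**Figure D2:**
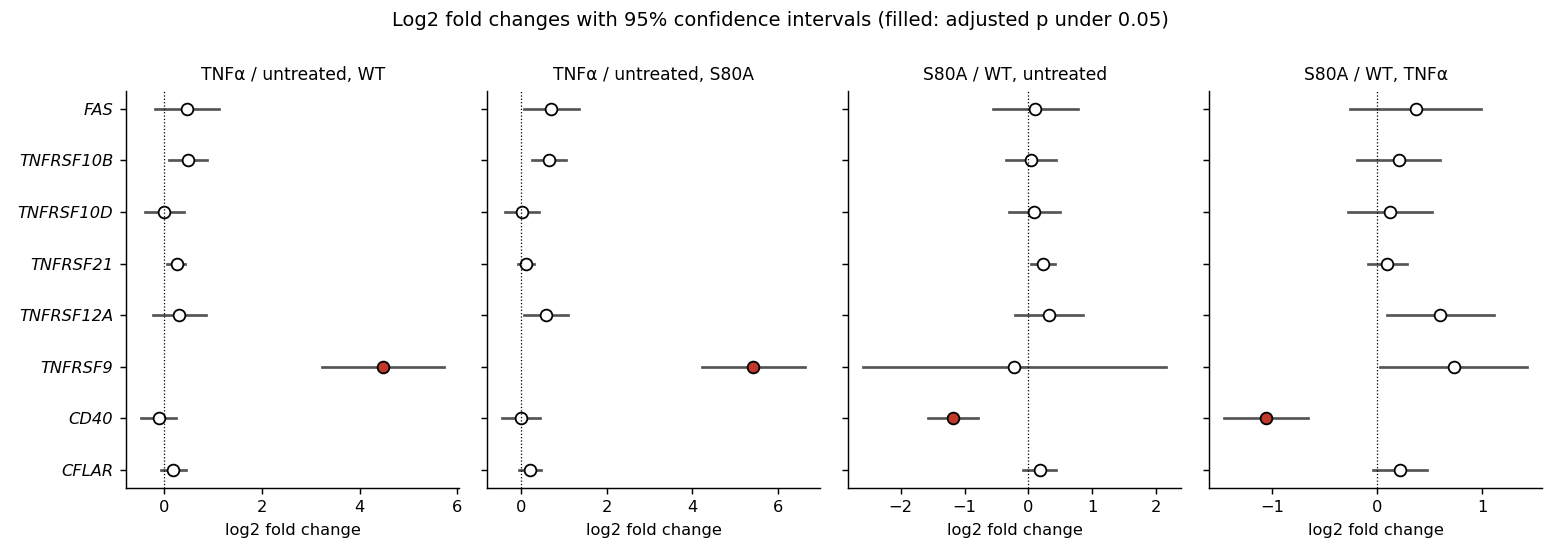
Log2 fold changes (x axis, range differs between panels) of the 8 tested genes (y axis) in 4 comparisons, with 95% confidence intervals from the edgeR model and filled points for adjusted p under 0.05. *TNFRSF9* alone passes in both TNFα panels and *CD40* alone in both panels of S80A against WT.

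Across all tested genes, 0.688% passed for TNFα in WT cells and 1.26% in S80A cells, and 6.26% and 7.36% passed for S80A against WT without and with TNFα. In each of these 4 comparisons 1 of the 8 tested genes of the group passed. For TNFα this was *TNFRSF9*, which had at most 4 counts in an untreated sample. It had enough reads to be tested only through the treated groups, so its call is not independent of the filter on low counts. The median log2 fold change of the 8 genes with TNFα was 0.28 in WT and 0.40 in S80A cells, against -0.00 for all tested genes in both. The 4 comparisons share groups, so they are not independent of each other. For the interaction, 0 of the 8 genes and 0 of all 14383 passed with edgeR, and 0 also with DESeq2. An unadjusted p under 0.05 was reached by 520 genes, fewer than that level would give if no gene had an interaction. None of those 520 belonged to the group, whose smallest unadjusted p was 0.291.

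The TRAIL receptors are encoded side by side on chromosome 8. *TNFRSF10B* encodes the death receptor TRAIL-R2 (chr8:23020133-23069031, minus strand). Its normalised counts in WT cells were 1566, 1213 and 1295 untreated and 2044, 1788 and 1872 after TNFα, with no overlap. In S80A cells they were 1867, 1123 and 1207 untreated and 2796, 1912 and 1863 after TNFα, where the lowest treated sample met the highest untreated one. Neither log2 fold change passed with edgeR, at 0.49 (SE 0.18, adjusted p = 0.627) in WT cells and 0.65 (SE 0.18, adjusted p = 0.163) in S80A cells. This verdict depended on the fit in both genotypes. In WT cells the log2 fold change was 0.50 with a block for the replicate number, an alternative fit (adjusted p = 0.039, edgeR). With only the samples compared it was 0.49 (adjusted p = 0.0278, edgeR). Without both S80A samples numbered 1 it was also 0.49 (adjusted p = 0.0341, edgeR). In WT cells *TNFRSF10B* was not called by DESeq2 on all samples, nor by edgeR without any 1 sample. Replicate 1 was the highest sample of both S80A groups. Without the untreated one the log2 fold change in S80A cells was 0.91 (adjusted p = 0.00759, edgeR), and without the treated one it was 0.43 (adjusted p = 0.547, edgeR). Without both, an alternative chosen after seeing the data, it was 0.70 (adjusted p = 0.012, edgeR). DESeq2 on all samples gave an adjusted p of 0.0357 in S80A cells. There edgeR gave an adjusted p of 0.0039 with the replicate block and 0.0082 without the filter on low counts. With only the samples compared, *TNFRSF10B* was not called in S80A cells. S80A and WT cells did not separate in *TNFRSF10B*, with log2 differences of 0.04 (95% interval -0.35 to 0.44) untreated and 0.21 (-0.19 to 0.60) after TNFα.

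*TNFRSF10D*, which encodes a decoy TRAIL receptor with a truncated death domain, showed no detectable response. It averaged 192 ± 16 (SD, n = 3) normalised counts in untreated and 192 ± 20.9 (SD, n = 3) in treated WT cells, and 203 ± 48.5 (SD, n = 3) and 207 ± 52.9 (SD, n = 3) in S80A cells. The 95% intervals of the TNFα response were -0.40 to 0.40 in WT and -0.37 to 0.42 in S80A cells on the log2 scale. *TNFRSF10A*, which encodes the death receptor TRAIL-R1, gave 1 read over all 12 samples and was at 0 in 11 of them. A count of 0 allows a level of up to 0.194 CPM in the smallest library. The genes for TRAIL receptors are close copies of each other, so that reads could be shared or lost between them, and 9.43% of the exon bases of *TNFRSF10B* overlap *RHOBTB2* on the opposite strand. Whether the counting used strand is not given in the sources used here. *RHOBTB2* averaged 329 to 362 normalised counts in the 4 groups. Its log2 fold change with TNFα was 0.08 in WT and 0.14 in S80A cells, and neither passed with edgeR. Its part in the *TNFRSF10B* counts was not tested.

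*FAS* encodes the receptor of FAS ligand (chr10:88953813-89029605, plus strand). Its normalised counts in WT cells were 134, 88.6 and 86.6 untreated and 172, 129 and 123 after TNFα. In S80A cells they were 153, 96.1 and 83.3 untreated and 272, 116 and 153 after TNFα. In both genotypes the treated and untreated samples overlapped. The log2 fold changes of 0.46 (SE 0.30, adjusted p = 0.997) and 0.71 (SE 0.30, adjusted p = 0.444) did not pass with edgeR. The latter was 0.28 without the treated S80A replicate 1, the highest of all 12 samples (adjusted p = 0.827, edgeR). Without the untreated S80A replicate 1 it was 1.03 (adjusted p = 0.151, edgeR). With a block for the replicate number, an alternative fit, the log2 fold change was 0.47 in WT cells (adjusted p = 0.353, edgeR). In S80A cells the same fit gave 0.69 (adjusted p = 0.0371, edgeR).

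*TNFRSF21* encodes death receptor 6 (chr6:47231532-47309905, minus strand). Its normalised counts in WT cells were 360, 421 and 402 untreated and 458, 482 and 467 after TNFα. The S80A cells gave 451, 460 and 477 untreated and 495, 527 and 481 after TNFα. The untreated WT samples were thus under all the others. The log2 differences from the untreated WT group were 0.25 (SE 0.09, adjusted p = 0.517, edgeR) with TNFα and 0.23 (SE 0.09, adjusted p = 0.152, edgeR) in untreated S80A cells, neither of which passed.

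*TNFRSF12A* encodes the receptor of TWEAK (chr16:3018445-3022383, plus strand), which has no death domain. Its normalised counts were 111, 65.3 and 98 in untreated and 120, 116 and 101 in treated WT cells. They were 153, 102 and 84.2 in untreated and 221, 144 and 143 in treated S80A cells. After TNFα all S80A samples exceeded all WT samples. The log2 difference was 0.60 (SE 0.24, adjusted p = 0.149, edgeR), which did not pass. With a block for the replicate number, an alternative fit, this genotype difference was 0.57 (adjusted p = 0.046, edgeR). The log2 fold change with TNFα was 0.30 in WT cells (SE 0.25, adjusted p = 0.997, edgeR). It was 0.59 in S80A cells (SE 0.24, adjusted p = 0.427, edgeR), and neither passed. *LTBR*, the lymphotoxin β receptor gene, gave 2 reads over all 12 samples and was at 0 in 10 of them.

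*CFLAR* (chr2:201116154-201176687, plus strand) measured 325, 293 and 290 normalised counts in untreated and 345, 352 and 331 in treated WT cells. In S80A cells it measured 332, 284 and 406 untreated and 422, 403 and 366 treated. The WT groups did not overlap while the S80A groups did. The log2 fold changes with TNFα were 0.18 in WT (95% interval -0.08 to 0.44) and 0.22 in S80A cells (-0.04 to 0.47), and neither passed with edgeR (adjusted p = 0.997 and 0.604).

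Counted by separation alone, 4 of the 8 genes had no overlap between untreated and TNFα-treated WT samples (*TNFRSF9*, *TNFRSF10B*, *TNFRSF21* and *CFLAR*), against 12.7% of all tested genes. In S80A cells 2 did (*TNFRSF9* and *TNFRSF21*), against 14.4%. *TNFRSF9* had enough reads to be tested only through the treated groups, so its separation in both genotypes was largely set by that filter. Between the genotypes 2 of the 8 did not overlap without TNFα (*CD40* lower and *TNFRSF21* higher in S80A) and 3 with TNFα (*CD40* lower, *TNFRSF12A* and *CFLAR* higher), against 25.0% and 26.2% of all tested genes.

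Compared per length of the canonical transcript, *TNFRSF10B* had the highest level of the group, 18.3 ± 2.49 CPM per kb (SD, n = 3) in untreated WT cells. *TNFRSF21* (5.92 ± 0.469) and *TNFRSF12A* (5.04 ± 1.29) came next in CPM per kb and overlapped each other. *TNFRSF10D* followed at 2.92 ± 0.244 CPM per kb. *CD40* (2.18 ± 0.224) and *FAS* (1.5 ± 0.387) also overlapped, and *CFLAR* was at 1.12 ± 0.0716 CPM per kb. The place of *CFLAR* depends on its canonical length of 14612 bases, the longest of the group. Which of its transcripts the cells used was not tested. Before division by length *CFLAR* averaged 16.3 CPM in untreated WT cells. That was under *TNFRSF10B* (73.3) and *TNFRSF21* (21.3) and above the rest of the group. *TNFRSF9* was at 0.0209 ± 0.0193 CPM per kb (all SD, n = 3). After TNFα *TNFRSF9* reached 0.497 ± 0.165 CPM per kb in WT and 0.809 ± 0.4 in S80A cells, still under *CFLAR*. In S80A cells *CD40*, at 0.949 ± 0.138 CPM per kb untreated, fell behind *FAS* and *CFLAR* in this order of means.

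**Figure D3:**
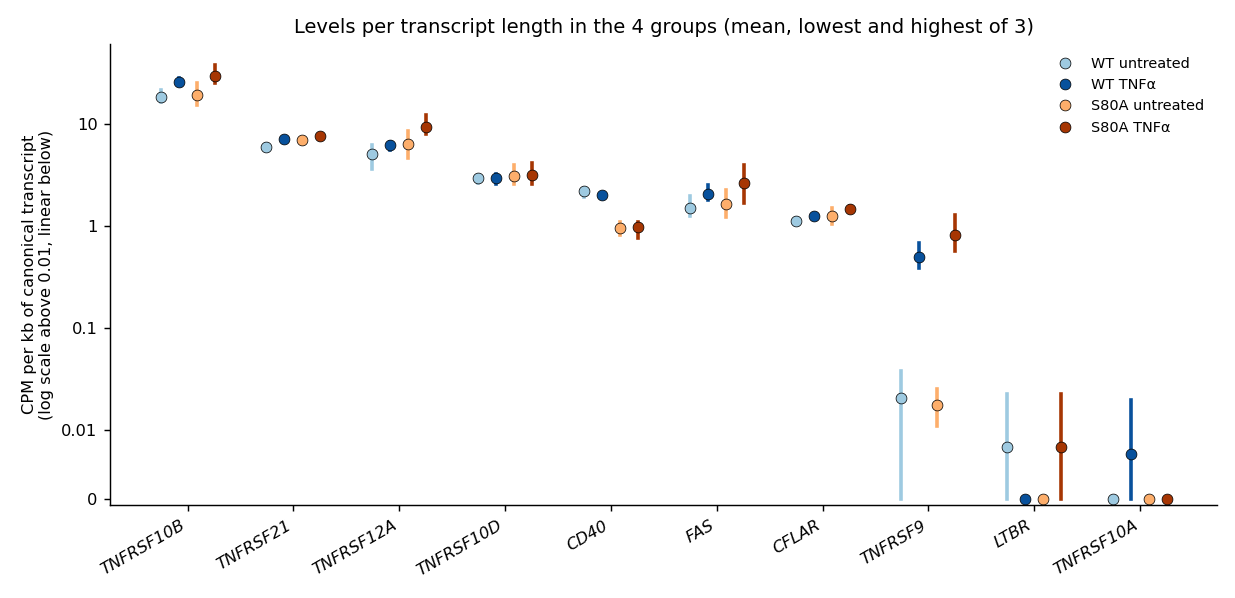
Level in CPM per kb of canonical transcript (y axis, log scale above 0.01 and linear below) of the 10 genes (x axis) in the 4 groups, with points at the mean of 3 samples and bars from the lowest to the highest. *TNFRSF10B* is highest in every group, and *LTBR* and *TNFRSF10A* are at or near 0.

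Within groups, replicate 1 stood apart for several of the receptors. In all 4 groups the sample numbered 1 was the highest for *FAS*, *TNFRSF10B*, *TNFRSF10D*, *TNFRSF12A* and *TNFRSF9*, which is 5 of the 8 tested genes. The same held for 7.7% of all tested genes, and for 0.925% and 1.16% with the samples numbered 2 and 3. *FAS* in replicate 1 was between 1.36 and 2.02 times the mean of replicates 2 and 3, and *TNFRSF10B* between 1.12 and 1.6 times. *TNFRSF21*, by contrast, was between 0.875 and 0.981 times. Over all tested genes, the deviations of the 4 samples numbered 1 from their group means correlated with each other in all 6 pairs (r from 0.116 to 0.495). The samples numbered 1 are not stated to share a day or batch, and what they share was not tested. Without both S80A samples numbered 1, an alternative chosen after seeing the data, the log2 differences of S80A against WT after TNFα were lower. They were -0.07 for *FAS*, -0.01 for *TNFRSF10B* and 0.35 for *TNFRSF12A*, in place of 0.37, 0.21 and 0.60. That fit kept the WT samples numbered 1, also the highest of their groups for these genes, so it lowered the S80A side alone. After TNFα replicates 2 and 3 of *FAS* were 116 and 153 normalised counts in S80A and 129 and 123 in WT cells. For *TNFRSF10B* they were 1912 and 1863 against 1788 and 1872, and for *TNFRSF12A* 144 and 143 against 116 and 101.

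**Figure D4:**
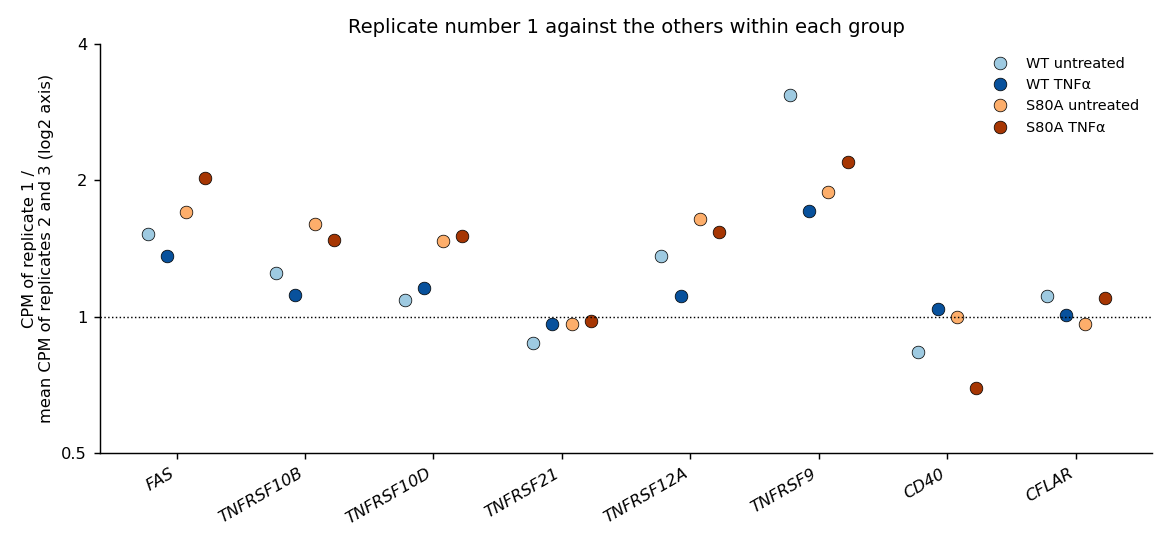
Ratio of the CPM in replicate 1 to the mean CPM of replicates 2 and 3 (y axis, log2 axis) for the 8 tested genes (x axis), with a point for each group. *FAS*, *TNFRSF10B*, *TNFRSF10D*, *TNFRSF12A* and *TNFRSF9* lie above 1 in all 4 groups, where the untreated *TNFRSF9* points rest on at most 4 counts a sample.

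Among 20 other receptors of the family 8 were tested, and TNFα changed 0 of them in WT cells by edgeR and 0 by DESeq2, with 1 at an unadjusted p under 0.05. Of all tested genes 0.688% passed with edgeR in that comparison, so a count of 0 among 8 says little. *TNFRSF1A*, the main TNFα receptor gene, averaged 579 ± 45.1 (SD, n = 3) normalised counts in untreated and 582 ± 26.6 (SD, n = 3) in treated WT cells. It averaged 664 ± 155 (SD, n = 3) and 664 ± 131 (SD, n = 3) in S80A cells and did not pass in any comparison. *TNFRSF1B* and *TNFRSF10C* had at most 7 and 6 counts in a sample and were not tested. *EDA2R*, a receptor for an ectodysplasin isoform, was lower in S80A cells. Its normalised counts were 68.3, 43.8 and 40.2 in untreated WT and 13, 7.21 and 5.21 in untreated S80A cells, a log2 difference of -2.56 (SE 0.35, adjusted p = 0.00057, edgeR). After TNFα the difference was -2.73 (SE 0.37, adjusted p = 0.000486, edgeR). *TNFRSF19* fell with TNFα in S80A cells, from 153, 177 and 127 to 75, 76.7 and 89.1 (log2 fold change -0.92, SE 0.20, adjusted p = 0.0338, edgeR). It went from 200, 131 and 161 to 136, 90.9 and 131 in WT cells (-0.45, SE 0.19, adjusted p = 0.708, edgeR), and the 2 responses did not differ by the interaction test (unadjusted p = 0.112, before any adjustment, from the edgeR model). The *TNFRSF19* call was lost without any 1 of 6 samples, namely the untreated WT replicate 3 (adjusted p = 0.0547), the untreated S80A replicates 1 and 2 (0.0656 and 0.0942) and the treated S80A replicates 1 to 3 (0.173, 0.151 and 0.0638).

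Of 18 ligand genes of the family 6 were tested, and only *TNF* passed. Like *TNFRSF9*, *TNF* had enough reads to be tested only through the treated groups. Its raw counts were 0 in all untreated WT samples, and 58 reads were counted after TNFα, at least 19.7-fold higher than a floor of 3 counts over the untreated group. In S80A cells 163 reads after TNFα stood against 2 untreated, a ratio of 86.5 with a 95% counting interval of 23.6 to 720. The normalised counts of *TNF* after TNFα were 27, 13.8 and 17.6 in WT cells and 56.1, 51.9 and 61.2 in S80A cells. They did not overlap, and the log2 difference was 1.53 (SE 0.29, adjusted p = 0.00789, edgeR). Without the treated WT replicate 2 it was 1.33, with an adjusted p of 0.0505. In untreated cells 6.26% of all tested genes differed between the genotypes by edgeR. Of the 6 ligands 0 differed by edgeR, 0 by DESeq2 and 0 at an unadjusted p under 0.05. This 0 depended on the filter on low counts, which left out *TNFSF12*, the gene of TWEAK, the ligand of the *TNFRSF12A* product. *TNFSF12*, named after its values were seen, had 13.5, 9.84 and 14.4 normalised counts in untreated WT and 2.78, 1.2 and 3.47 in untreated S80A cells, without overlap. After TNFα they were 1.04, 8.89 and 4.89 in WT and 2.71, 3.54 and 4.29 in S80A cells, which overlapped. In untreated cells *TNFSF12* was called by edgeR without the filter, and also without the untreated WT replicate 2, the untreated S80A replicate 2 or any 1 of the 6 treated samples. *FASLG*, the FAS ligand gene, was at 0 in all samples, and *TNFSF10*, which encodes TRAIL, had at most 2 counts in a sample.

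Downstream of the receptors, 22 of 24 death signalling genes were tested. In WT cells TNFα changed 0 of them by edgeR, against 0.688% of all tested genes, and 0 by DESeq2. At an unadjusted p under 0.05 there was 1. *BIRC3*, which encodes the caspase regulator cIAP2, rose in S80A cells from 7.41, 2.4 and 2.6 to 26.2, 15.3 and 21.5 normalised counts (log2 fold change 2.30, SE 0.46, adjusted p = 0.022, edgeR). In WT cells it went from 2.07, 8.95 and 9.28 to 17.6, 22.7 and 16.6 (1.45, SE 0.43, adjusted p = 0.283, edgeR). The *BIRC3* call was lost without the untreated S80A replicate 2 or 3 (adjusted p = 0.061 and 0.141) or the treated S80A replicate 1 or 3 (0.135 and 0.0578). Between the genotypes 0 of the 22 passed with edgeR, against 6.26% and 7.36% of all tested genes without and with TNFα. A count of 0 among 22 says little at these shares. At an unadjusted p under 0.05 there were 5 and 3, and the share of all tested genes at that level was not counted. DESeq2 called *DAXX* without and *RIPK1* with TNFα. The initiator *CASP8* averaged 188 to 193 normalised counts in the 4 groups and the adaptor *FADD* 973 to 1061. The necroptosis kinase *RIPK3* was at 0 in all samples.

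**Figure D5:**
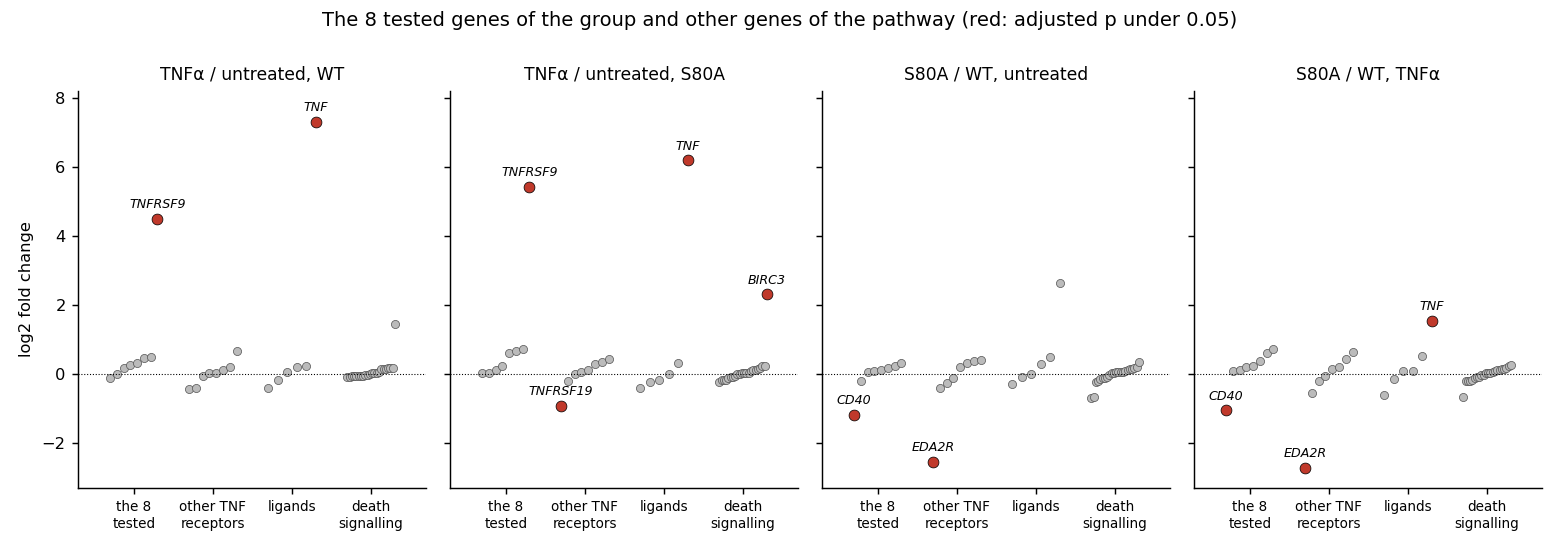
Log2 fold changes (y axis) in 4 comparisons (panels) of the 8 tested genes and of the tested genes of 3 lists, other TNF receptors, ligands and death signalling genes (x axis, ordered by value within each list). Red points have an adjusted p under 0.05 by edgeR, and the fold of *TNF* against untreated cells has no fixed size because untreated WT samples held 0 counts.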

How the data were processed

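RNA was sequenced from 12 samples, mapped to 4 groups by their titles. Per the labels, polyA RNA was sequenced as stranded single-end reads. HISAT (alignment to GRCh38) and HTSeq-count (gene counts) were run by the authors, who deposited the counts unnormalised. Versions and the strand setting are not given in the sources used here. Deposited lists of differential genes hold the authors' fold changes and p-values from DESeq2 and were not used. The members and lists were chosen with earlier results of these data known.

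Of 33121 genes, 28 with damaged rows were left out (at most 0.233% of a sample's counts). Counts were analysed with edgeR 4.0.16 in R 4.3.3: filterByExpr (minimum count 10), TMM, and a quasi-likelihood model of 4 group means over all 12 samples, with Benjamini-Hochberg adjustment over 14383 genes and a threshold of 0.05. The standard error was the log2 fold change over the square root of F. For normalised counts, each library was scaled by TMM to the mean library size. P-values measure the spread between samples that the paper calls independently generated. Floors are 3 counts.

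On simulated data for TNFα in WT cells (14255 genes, 199 changed), 77.8% of changes of 1 and 95% of changes of 2 on the log2 scale were recovered, and 4.44% of calls were false. Named genes were all 10 of the group, every gene of the 3 pathway lists that passed, and some preset pathway genes. Likeness was Pearson's r of log2 CPM (prior count 2). Positions are from GENCODE and promoters from RefSeq (GRCh38.p14). Alternatives were DESeq2 1.42.0, other normalizations and filters, a replicate block, fewer samples and a log2 fold change of at least 1. Tables were made with Python 3.11.15, numpy 2.4.6, pandas 2.3.3, scipy 1.17.1 and matplotlib 3.10.9.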

Additional observations from a re-analysis of the deposited data

How the results depend on the processing

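The calls of *TNFRSF9* for TNFα and of *CD40* for the genotype held under each alternative that kept the gene, including without any 1 sample. A filter of at least 10 counts in every sample removed *TNFRSF9*, which left 0 genes of the group called for TNFα in either genotype. Over 786 recomputed values of the 8 genes, 0 called values reversed or lost their call, 11 gained one, and 40 values called in neither fit changed sign. Of the group 2 genes were called for TNFα in WT cells with the replicate block, with only the samples compared and without both S80A samples numbered 1 (adjusted p of *TNFRSF10B* 0.039, 0.0278 and 0.0341). In S80A cells 2 were called with DESeq2, without a filter and without both samples numbered 1. The labels state no shared batch or day for a replicate number, and not every same-numbered pair of samples deviated together (mean correlation of deviations 0.118, from -0.0989 to 0.495, and -0.0589 for different numbers), so the fit without the block was kept. The samples numbered 1 did deviate together (0.116 to 0.495) and each correlated best with another of that number, as a hint from the data, which did not hold for every sample numbered 2 or 3. With the replicate block, 3 were called for TNFα in S80A cells (*FAS* and *TNFRSF10B* added, adjusted p = 0.0371 and 0.0039 by edgeR) and 3 for the genotype after TNFα (*TNFRSF12A* and *TNFRSF9* added, 0.046 and 0.0408), and 113, 208, 1232, 1469 and 0 of all genes in the 5 comparisons. Of all genes, TNFα in WT cells gave 99 calls, 161 with DESeq2 and 53 with a log2 fold change of at least 1. TNFα in S80A cells gave 181, 71 with only the samples compared, 103 without both S80A samples numbered 1 and 64 with the fold limit. The genotype gave 900 without TNFα, 456 with only the samples compared and 199 with the fold limit, and 1058 after TNFα, 632 without both samples numbered 1 and 205 with the fold limit. Leaving out each sample in turn gave 65 to 145, 98 to 193, 356 to 1039 and 434 to 1646 calls in these 4 comparisons and 0 for the interaction. The group's count then stayed at 1, except for 2 for TNFα in S80A cells without the untreated S80A replicate 1, and was 0 for the interaction. The κB consensus matched 3 genes of the group in place of 1. Genes with few reads, such as *TNFRSF9* in untreated cells, are limited by depth.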
